A study of Mus musculus with 9 samples.

Results

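The granulocyte transcription factors examined here were 7 genes: Spi1, which encodes PU.1, the C/EBP family genes Cebpa, Cebpb, Cebpd, Cebpe and Cebpg, and the repressor gene Gfi1. They were chosen by gene symbol from 24364 named genes, and all 7 passed the filter on low values that left 12101 genes for testing. Expression had been measured by RNA sequencing of leukemia cells from a mouse model of acute promyelocytic leukemia (APL), in 3 ATRA, 3 ATO and 3 control libraries. Bone marrow cells of FVB/NJ mice carrying the hMRP8-PML/RARα transgene were marked with a GFP retrovirus (MigR1) and transplanted into syngeneic recipients, so every library shares the transgene, the vector and the strain. The hMRP8 promoter confines the fusion protein to myeloid cells. Once leukemia was overt, ATRA at 10 mg/kg or ATO at 4 mg/kg was injected into the peritoneum daily for 6 days, and GFP-positive bone marrow cells were sorted. ATRA, all-trans retinoic acid, is the ligand of RARα, and ATO, arsenic trioxide, binds the PML part of the fusion protein. The comparison asked how the transcripts of these factors differed after treatment in the animal. Whether control mice received solvent is not given in the sources used here, so injection and drug cannot be told apart. The labels name no animal for each library, so p-values measure the spread between these libraries, which may in part be technical.

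PU.1 is an ETS family factor that opens myeloid genes in progenitors, and C/EBPα commits those progenitors to the granulocyte and monocyte fates. C/EBPε then drives the genes of the secondary granules, C/EBPβ sustains granulocyte production under stress, and GFI1, a zinc finger repressor, silences monocyte genes in cells that become granulocytes. C/EBP proteins bind DNA as dimers with each other or with related leucine zipper proteins, and PML/RARα is known to block their activity in APL.

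Promoter windows from RefSeq (GRCm38.p6, 250 bases before to 50 after a start site, which is base 251) matched 4 of the 7 genes: Cebpa, Cebpb, Cebpg and Gfi1. They are shown as the regulatory starts of these members, with their base composition and motif matches. Capitals mark the motif matches found. The windows are on the plus strand of chr7:35119043-35119342 for Cebpa and chr2:167688665-167688964 for Cebpb, and on the minus strand of chr7:35056517-35056816 for Cebpg and chr5:107725756-107726055 for Gfi1.
Cebpa: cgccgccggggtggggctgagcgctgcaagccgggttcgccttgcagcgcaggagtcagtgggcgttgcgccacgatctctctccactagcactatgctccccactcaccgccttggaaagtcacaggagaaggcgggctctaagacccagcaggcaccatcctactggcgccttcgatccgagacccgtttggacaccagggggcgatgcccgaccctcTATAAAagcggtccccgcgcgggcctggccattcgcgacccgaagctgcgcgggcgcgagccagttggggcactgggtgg
Cebpb: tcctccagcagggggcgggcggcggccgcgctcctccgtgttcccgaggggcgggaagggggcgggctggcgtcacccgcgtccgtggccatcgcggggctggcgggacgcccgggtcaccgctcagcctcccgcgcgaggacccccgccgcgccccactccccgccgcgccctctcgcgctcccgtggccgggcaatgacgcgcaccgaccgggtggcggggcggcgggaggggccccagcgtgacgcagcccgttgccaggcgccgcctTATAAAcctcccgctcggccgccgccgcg
Cebpg: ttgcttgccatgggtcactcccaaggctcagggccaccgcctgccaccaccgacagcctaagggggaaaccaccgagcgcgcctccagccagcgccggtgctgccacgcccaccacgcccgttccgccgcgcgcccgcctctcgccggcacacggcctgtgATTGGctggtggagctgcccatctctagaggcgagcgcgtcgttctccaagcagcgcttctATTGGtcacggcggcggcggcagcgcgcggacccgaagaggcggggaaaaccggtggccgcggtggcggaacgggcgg
Gfi1: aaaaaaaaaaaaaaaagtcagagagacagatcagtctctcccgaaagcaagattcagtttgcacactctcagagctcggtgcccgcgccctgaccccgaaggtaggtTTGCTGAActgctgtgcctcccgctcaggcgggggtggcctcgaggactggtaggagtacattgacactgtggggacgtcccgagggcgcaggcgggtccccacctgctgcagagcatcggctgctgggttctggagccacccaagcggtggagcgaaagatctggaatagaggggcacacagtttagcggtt
GC made up 80.7% of the Cebpb window, 71.7% of the Cebpg window, 67.3% of the Cebpa window and 58% of the Gfi1 window, against a median of 52.7% over 32851 windows. On both strands, 8 motifs were searched. The C/EBP palindrome TTGCNNAA was matched at base 108 of the Gfi1 window shown and in 10.8% of all windows. The TATA box TATAAA was matched at base 221 of the Cebpa window, before the start, and base 272 of the Cebpb window, after it. It was matched in 13.6% of all windows. The CCAAT box, CCAAT, was matched on the opposite strand at bases 162 and 223 of the Cebpg window, and in 37.4% of all windows. None of these matches overlapped another. No match was found in the 5 windows of the members for the PU.1 core GAGGAAG (13.6% of all windows), the GFI1 core AAATCAC (3.2%), the retinoic acid receptor core AGGTCA (16.3%), the cyclic AMP response element TGACGTCA (1.79%) or the STAT palindrome TTCNNNGAA (8.3%). A further Gfi1 window, at chr5:107724294-107724593, held none of the 8.

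Total reads on genes ran from 17677845 to 18082678 with ATRA, from 12192491 to 25511738 with ATO and from 15822998 to 17529630 in controls. The deposited values were brought to a common scale and are given as scaled reads. Calls required an adjusted p under 0.05 (limma, Benjamini-Hochberg over all tested genes) together with a fold change over 1.5. Both drugs were compared with the same 3 control libraries. Libraries differed within groups in granule genes that were picked for mention after their values were seen. Ngp, a secondary granule gene, stood at 60790, 61059 and 11734 scaled reads with ATRA, at 43244, 60953 and 77772 with ATO and at 15677, 92265 and 19120 in controls. ATRA 3 was thus far below the other ATRA libraries, and control 2 far above the other controls. Calls of the members, and counts of several gene lists, are given with and without these libraries. Primary granule genes, which mark promyelocytes, were abundant: Elane, the neutrophil elastase gene, had 54867 to 227966 scaled reads in the 9 libraries and Mpo, the myeloperoxidase gene, had 49869 to 288247.

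Per kilobase of exon, Spi1 was the most abundant of the 7 genes in each group by its mean and Cebpg the least abundant. Spi1 averaged 5461 ± 297 scaled reads per kb with ATRA, 6212 ± 1738 with ATO and 4299 ± 753 in controls (SD, n = 3 each). With ATRA the order of the means was Spi1, Cebpd, Cebpa, Cebpe, Cebpb, Gfi1 and Cebpg. With ATO it was Spi1, Cebpd, Cebpb, Cebpa, Cebpe, Gfi1 and Cebpg, and in controls Spi1, Cebpa, Cebpd, Cebpb, Cebpe, Gfi1 and Cebpg. Between neighbors the control libraries overlapped at every step of that order except the last, where Gfi1 averaged 1294 ± 155 per kb and Cebpg 121 ± 26.4. Cebpg lay near the middle of all tested genes, at the 56.8th percentile with ATRA, the 54.4th with ATO and the 50.5th in controls, whereas the other 6 genes lay at the 93.5th percentile or above in each group.

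**Figure D1:**
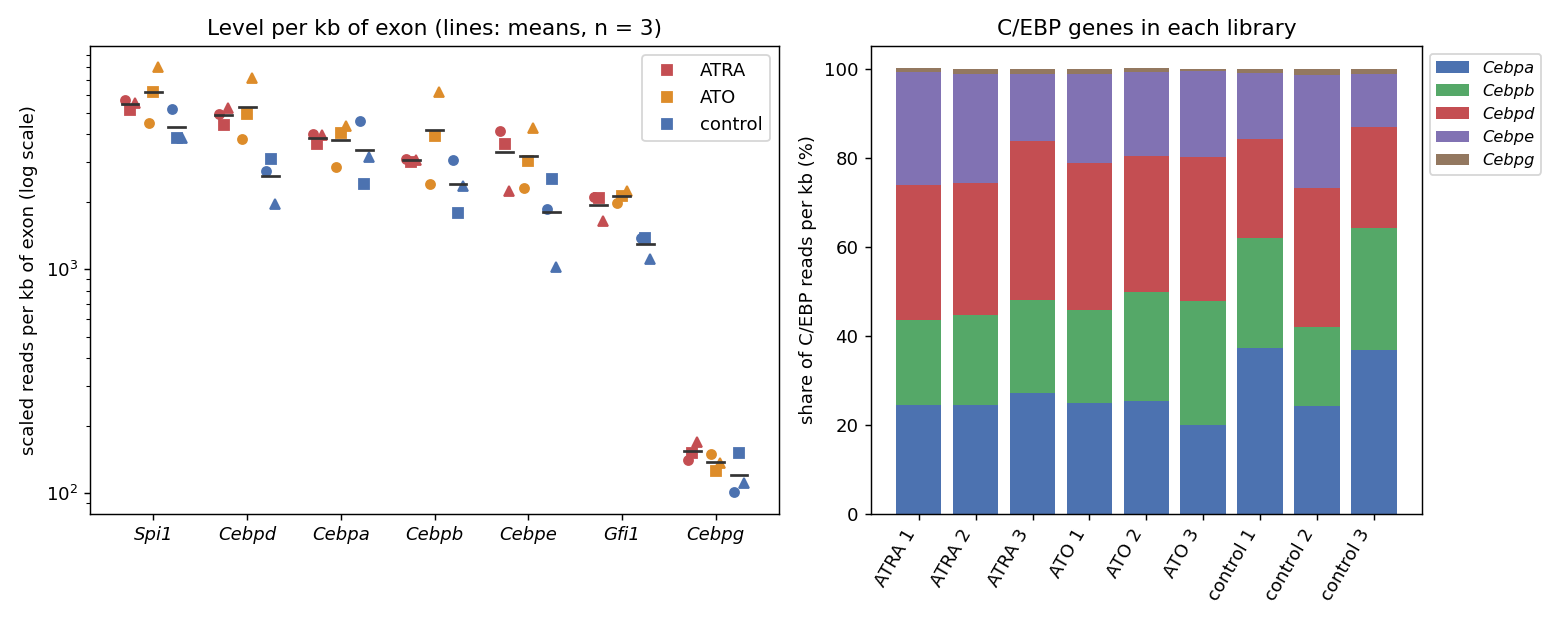
Left, scaled reads per kb of exon (log axis) for each gene, with a point per library and a line at the mean of 3. Right, the percentage of each C/EBP gene in the summed per-kb reads of the 5 C/EBP genes, by library. Cebpg took 0.6 to 1.5% in all 9 libraries, and Cebpd took 29.8 to 35.8% in the ATRA and ATO libraries and 22.1, 31.2 and 22.7% in controls.

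Within the C/EBP family, these shares do not depend on how libraries were scaled to each other. Cebpd made up 31.9 ± 3.34% of C/EBP reads per kb with ATRA, 32.0 ± 1.19% with ATO and 25.4 ± 5.04% in controls. Cebpa made up 25.3 ± 1.46%, 23.3 ± 3.05% and 32.7 ± 7.41% in the same groups. Control 2 departed from the other controls on both: it had 31.2% Cebpd and 24.1% Cebpa, within or near the range of the treated libraries, while controls 1 and 3 had 37.2 and 36.8% Cebpa.

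Against control, 1 of the 7 genes was called with ATRA (Cebpd) and 2 with ATO (Cebpd and Gfi1), all higher. Among all 12101 tested genes, 5.6% were called with ATRA and 14.7% with ATO; in the higher direction alone it was 1.34% and 6.13%, and in the lower 4.26% and 8.55%. Cebpd and Gfi1 were also the 2 members whose drug libraries all lay above all controls with either drug, as did 11.5% of all genes with ATRA and 15.9% with ATO. The median log2 fold change of the 7 genes was 0.39 with ATRA and 0.71 with ATO, beside -0.01 for all tested genes in either comparison. With single libraries left out, the count of members called ran from 0 to 1 with ATRA (0 without control 1, control 3, ATRA 1, ATRA 2 or ATO 2) and from 0 to 4 with ATO (0 without control 3, ATO 2 or ATO 3, and 4 without ATO 1). Neither called gene passed once gene length and GC content were corrected for.

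**Figure D2:**
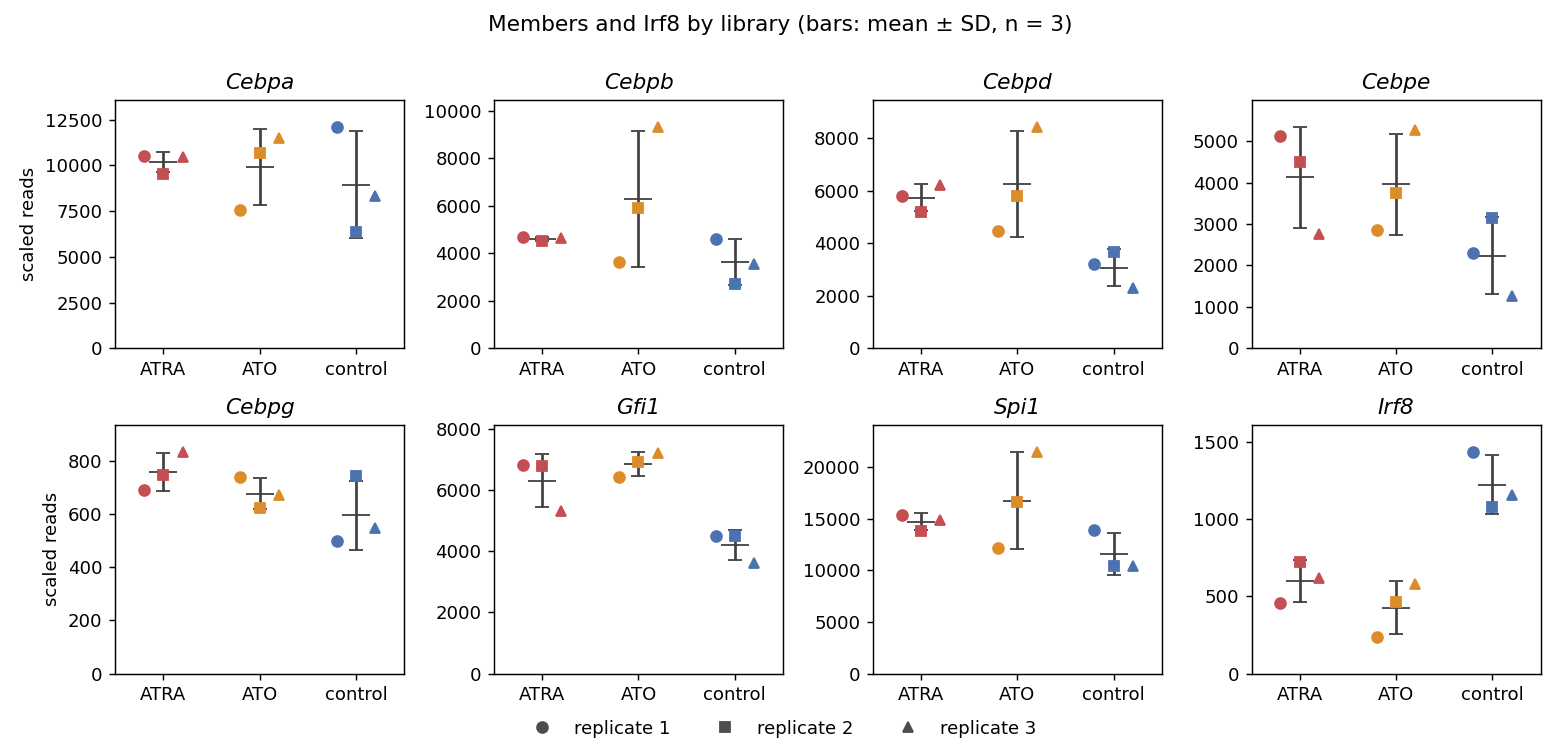
Scaled reads (linear axis from 0) of the 7 genes and of Irf8 in each library, with the mean and SD of 3 libraries per group. Cebpd and Gfi1 are higher in all 6 treated libraries than in any control, Irf8 is lower in all 6, and the other 5 genes overlap between groups.

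Cebpd, which encodes an early response C/EBP factor of myeloid cells and inflammation (mm9, chromosome 16, 15887379 to 15888559), had the largest difference among those called. It had 5804, 5214 and 6215 scaled reads with ATRA and 4489, 5809 and 8449 with ATO, against 3233, 3676 and 2312 in controls. Every treated library lay above every control. The log2 fold change was 0.92 with ATRA (SE 0.24, adjusted p = 0.0368) and 1.00 with ATO (SE 0.24, adjusted p = 0.0185). The annotation used for positions types this locus as a pseudogene, and reads that aligned to more than one place had been discarded. With ATRA the call was lost when any one of control 1, control 3, ATRA 1, ATRA 2, ATRA 3 or ATO 2 was left out (adjusted p between 0.0576 and 0.26), and with ATO when control 3, ATO 2 or ATO 3 was left out (0.0538 to 0.124).

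Gfi1 (chromosome 5, 108145674 to 108155056) had a smaller SD than Cebpd with ATO and in controls, and a larger SD with ATRA. It had 6835, 6780 and 5306 scaled reads with ATRA and 6435, 6926 and 7222 with ATO, against 4500, 4492 and 3623 in controls. Neither drug group overlapped with the controls. The difference passed with ATO (log2 0.71, SE 0.17, adjusted p = 0.0184) and stayed short with ATRA (log2 0.58, SE 0.17, adjusted p = 0.0638), where the fold was also just under 1.5. The ATO call was lost without control 3, ATO 2 or ATO 3 (adjusted p 0.0555 to 0.122), and a call with ATRA was gained under TMM scaling (0.0469), without ATRA 3 (0.0464), or without control 2 and ATRA 3 together (log2 0.75, adjusted p = 0.0334). ATRA 3 was the lowest ATRA library for Gfi1, so leaving it out could only raise the ATRA difference. A430072P03Rik overlaps Gfi1 on the other strand, and whether the counting used strand is not given in the sources used here.

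Cebpe (chromosome 14, 55329200 to 55331011) had a log2 fold change close to that of Cebpd with ATRA (0.93 and 0.92) and a lower one with ATO (0.87 and 1.00), and a wider spread. Its values were 5119, 4499 and 2760 scaled reads with ATRA and 2857, 3750 and 5259 with ATO, against 2304, 3134 and 1269 in controls. ATRA 3 and ATO 1 lay below control 2. The log2 fold change was 0.93 with ATRA (SE 0.33, adjusted p = 0.139) and 0.87 with ATO (SE 0.33, adjusted p = 0.0857), so neither passed. With control 2 and ATRA 3 both left out, it was 1.49 with ATRA (adjusted p = 0.0112) and 1.16 with ATO (adjusted p = 0.0191). These are the libraries that stood apart in granule genes. For Cebpe they were also the highest control and the lowest ATRA library, so leaving them out could only raise its differences from control. Over the 9 libraries, the log2 level of Cebpe had a Pearson r of 0.778 with Camp, 0.692 with Ngp, 0.65 with Ltf and 0.408 with Lcn2, all secondary granule genes, and of 0.539 with Elane and -0.071 with Mpo, both primary granule genes. The libraries share their depth and base composition, so these r are descriptions.

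Cebpb (chromosome 2, 167514415 to 167515918), whose product is induced by cytokines, was nearly constant with ATRA and variable with ATO. It had 4680, 4513 and 4641 scaled reads with ATRA and 3629, 5908 and 9329 with ATO, against 4616, 2689 and 3541 in controls. Control 1 reached the ATRA level, and ATO 1 lay within the control range. Neither the ATRA (log2 0.39, SE 0.29, adjusted p = 0.493) nor the ATO comparison passed (log2 0.73, SE 0.29, adjusted p = 0.0978). In DESeq2 on the recovered reads the ATO increase passed (log2 0.80, adjusted p = 0.0392), as it did in limma without ATO 1 (1.07, adjusted p = 0.0212) or without control 1 (0.92, adjusted p = 0.0491). Tmem189 overlaps Cebpb on the other strand.

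Spi1 (chromosome 2, 90922547 to 90955913) was not called with either drug. Its values were 15413, 13842 and 14900 scaled reads with ATRA and 12132, 16596 and 21496 with ATO, against 13930, 10424 and 10405 in controls. Control 1 lay inside the range of both drug groups. The log2 fold change was 0.36 with ATRA (SE 0.21, adjusted p = 0.393) and 0.51 with ATO (SE 0.21, adjusted p = 0.117). Leaving out ATO 1 brought the ATO difference past the threshold (0.72, adjusted p = 0.0409).

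Cebpa and Cebpg lie next to each other on chromosome 7. Cebpa (35904312 to 35906945) had 10524, 9548 and 10479 scaled reads with ATRA and 7549, 10658 and 11505 with ATO, against 12112, 6355 and 8343 in controls. Its highest and lowest libraries were both controls. The log2 fold change was 0.24 with ATRA (95% interval -0.27 to 0.74, adjusted p = 0.617) and 0.18 with ATO (-0.33 to 0.68, adjusted p = 0.61). Cebpg (35831441 to 35841522), whose product lacks a transactivation domain of its own and pairs with other leucine zipper factors, had 692, 747 and 835 scaled reads with ATRA and 739, 623 and 671 with ATO, against 498, 745 and 547 in controls. Control 2 lay at the level of the treated libraries. Its log2 fold change was 0.36 with ATRA (SE 0.19, adjusted p = 0.317) and 0.20 with ATO (SE 0.19, adjusted p = 0.454). At an unadjusted p under 0.05 stood Cebpd, Cebpe and Gfi1 with ATRA (3 of 7; 19.2% of all genes) and the same 3 with Cebpb and Spi1 with ATO (5 of 7; 34.8% of all genes).

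The members differed in base composition. GC made up 67.2% of the exons of Cebpb, 63% of Cebpd, 62.6% of Cebpa, 61.6% of Cebpe, 58.1% of Gfi1, 56% of Spi1 and 43.6% of Cebpg, against a median of 50.2% over the tested genes. Libraries differed in how a gene's level depended on GC. The slope, in log2 units per 10% GC, was 0.127, 0.021 and -0.102 with ATRA, 0.019, 0.281 and 0.213 with ATO, and 0.167, -0.438 and -0.289 in controls. Controls 2 and 3 were the 2 libraries in which GC-rich genes read lowest. Over the 9 libraries the slope had a Pearson r of 0.813 with the log2 level of Spi1, 0.805 with Cebpa, 0.794 with Cebpb, 0.712 with Gfi1, 0.581 with Cebpd, 0.528 with Cebpe and -0.228 with Cebpg. The slope is itself computed from the genes of the same libraries, and treated and control libraries differ in it, so these r describe the libraries only.

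**Figure D3:**
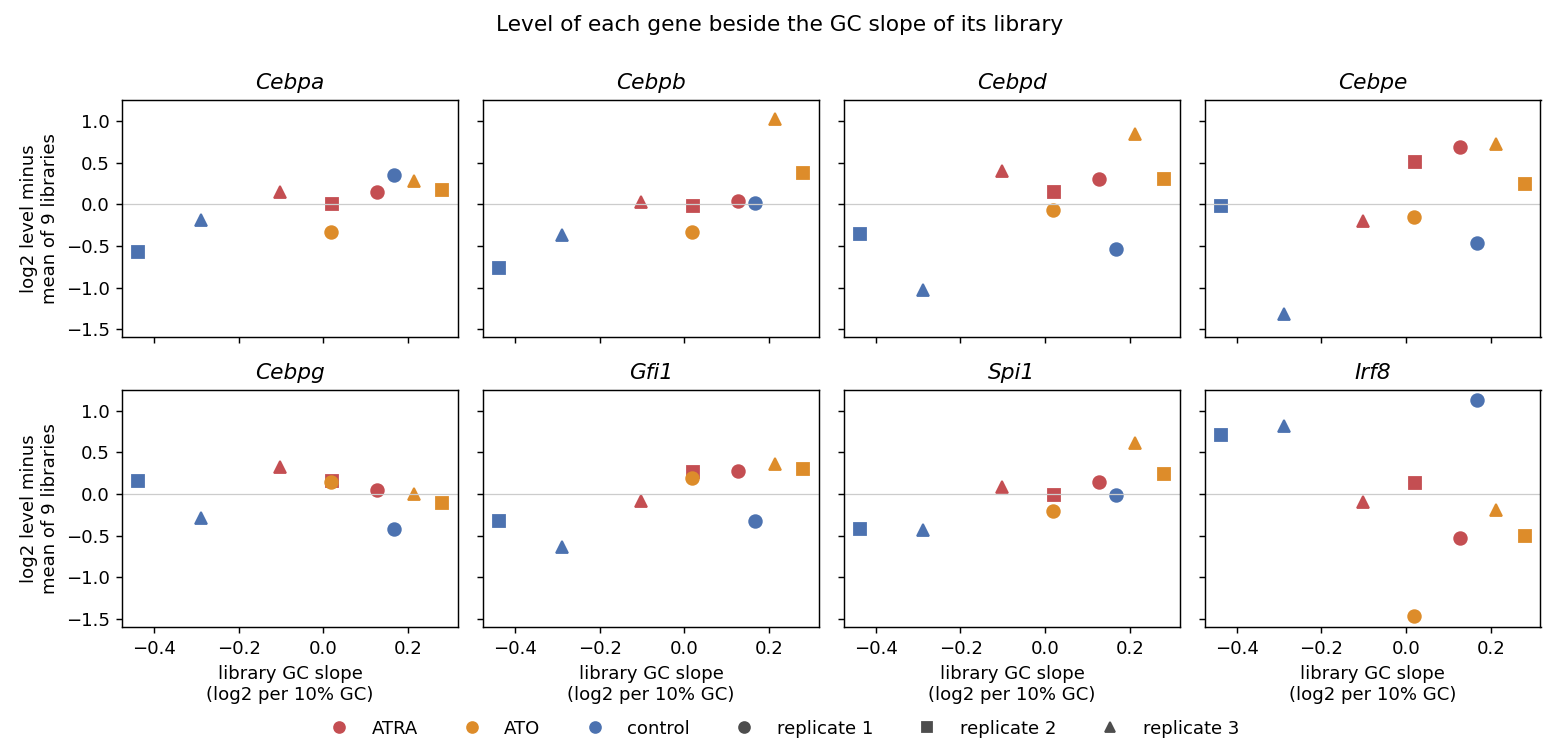
Each gene's log2 scaled level minus its mean over the 9 libraries, against the GC slope of the library (log2 per 10% GC), with a point per library. Control 2 and control 3 lie farthest left, at -0.438 and -0.289, where Cebpa (-0.579 and -0.186), Cebpb (-0.764 and -0.367) and Spi1 (-0.426 and -0.429) lie under their means, while Cebpe is at -0.019 and -1.322 and Cebpg at 0.153 and -0.291.

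Removing the dependence on length and GC from each library changed which members passed. By least squares, the form tried first, Cebpd had a log2 fold change of 0.67 with ATRA (SE 0.20, adjusted p = 0.0556) and 0.585 with ATO (SE 0.20, adjusted p = 0.0584). Gfi1 had 0.47 with ATRA (SE 0.13, adjusted p = 0.0405) and 0.51 with ATO (SE 0.13, adjusted p = 0.0186), both under the 1.5-fold limit of 0.585. Both earlier calls were thus lost, the first on p and the other on fold. Cebpg, the member with the lowest GC, passed instead, at 0.64 with ATRA (SE 0.12, adjusted p = 0.00855) and 0.64 with ATO (SE 0.12, adjusted p = 0.00605). A robust form that keeps the median gene of each library in place was added after these values had been seen, and under it none of the 7 genes was called with either drug. Cebpd then had 0.53 with ATRA (adjusted p = 0.121) and 0.46 with ATO (0.112), Gfi1 0.35 (0.115) and 0.40 (0.0463), and Cebpg 0.55 (0.018) and 0.55 (0.0141). Gfi1 with ATO and Cebpg with both drugs were short on fold alone. The differences of Cebpa were -0.11 with ATRA and -0.25 with ATO under that form, so its sign turned. Among all genes the first form also moved the balance of calls, to 459 higher and 558 lower with ATRA, against 162 and 516 without correction, and to 1079 higher and 734 lower with ATO, against 742 and 1035. Whether the GC slopes arose in the cells or in library preparation was not tested.

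**Figure D4:**
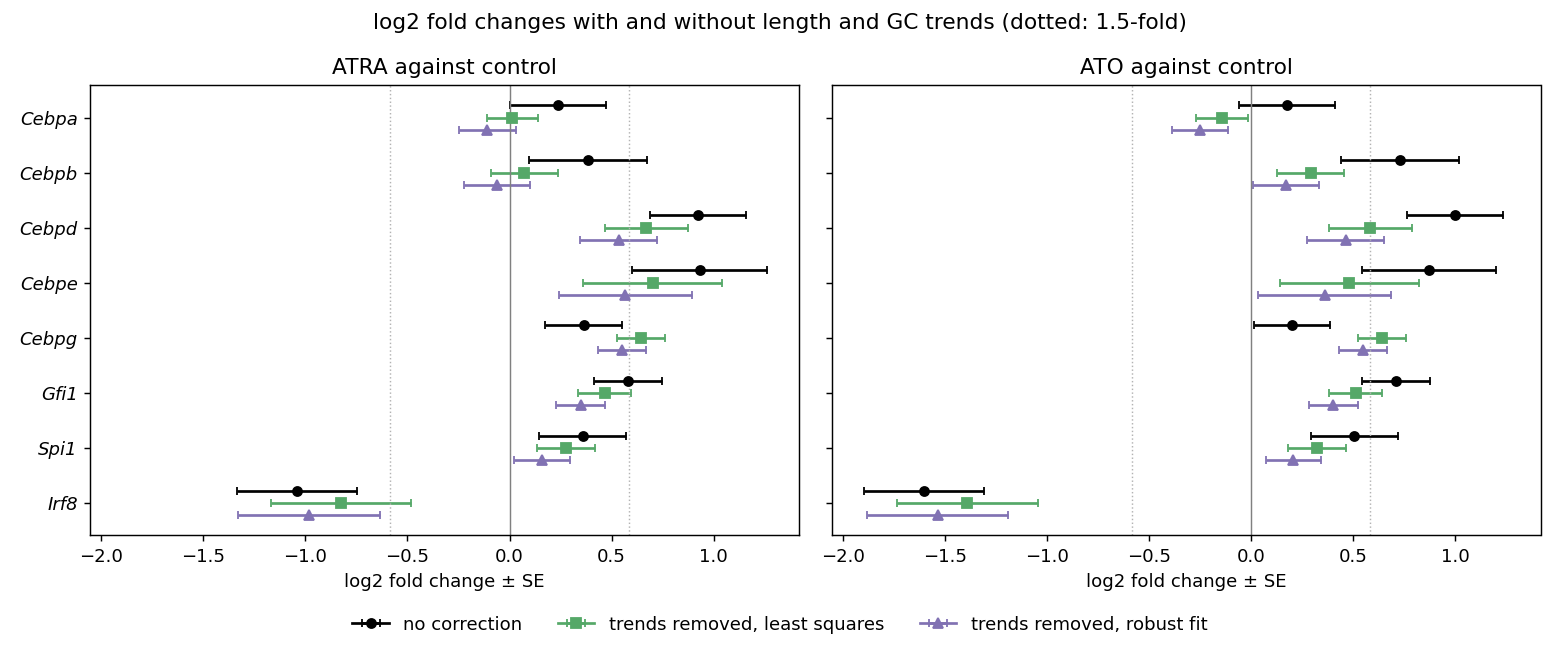
Log2 fold change with its SE for each gene, ATRA against control on the left and ATO against control on the right, without correction and after 2 ways of removing length and GC trends. Dotted lines mark the 1.5-fold limits. Cebpd keeps a positive difference in each form (0.92, 0.67 and 0.53 with ATRA), Cebpa moves to -0.14 and -0.25 with ATO, and Cebpg is at 0.64 and 0.55 after correction in both panels.

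ATO was also compared with ATRA directly. No member was called, the smallest adjusted p among them being 0.836, for Cebpb (log2 0.34, 95% interval -0.28 to 0.97). For Cebpd the difference was 0.08 (-0.43 to 0.58) and for Gfi1 0.13 (-0.23 to 0.49). Over all genes limma and edgeR called 0 and DESeq2 called 70, with 764 at an unadjusted p under 0.05 in limma (6.31%). With the replicate number as a block in a fit of the ATO and ATRA libraries alone, 334 genes were called (2.88% of 11605), 181 higher and 153 lower with ATO. Those libraries alone without the block gave 0 calls, as did the block over all 3 groups. Whether libraries of the same number form pairs is not established. No member was among the 334, and the smallest adjusted p of a member was 0.339, for Cebpb.

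Irf8, the interferon regulatory factor that drives monocytes and dendritic cells at the expense of granulocytes, differed from controls in the direction opposite to Gfi1 (chromosome 8, 123260258 to 123280594). It had 456, 724 and 618 scaled reads with ATRA and 237, 464 and 578 with ATO, against 1435, 1076 and 1156 in controls. All 6 treated libraries lay below all controls. Of all tested genes, 12.5% had all ATRA libraries below all controls, and 16.4% had all ATO libraries below them. Irf8 fell with ATO (log2 -1.60, SE 0.29, adjusted p = 0.00534), and with ATRA its log2 fold change was -1.04 (SE 0.29, adjusted p = 0.0583). The ATRA difference passed in edgeR (adjusted p = 0.0403) and in DESeq2 (0.00884). Of 22 alternative settings, 16 left it uncalled, and its log2 fold change ran from -1.19 to -0.83 over the 22. The ratio of Gfi1 to Irf8 reads was 15.0, 9.37 and 8.59 with ATRA and 27.1, 14.9 and 12.5 with ATO. In controls it was 3.14, 4.18 and 3.13. Since Gfi1 lay above and Irf8 below all controls in each treated library, the ratio had to lie above the controls. It is a description and no separate test. With the trends removed by least squares, Irf8 had -0.83 with ATRA (adjusted p = 0.137) and -1.39 with ATO (adjusted p = 0.0176).

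Among proteins that pair with or antagonize C/EBP factors, 0 of 7 tested genes were called with ATRA and 3 with ATO, all higher. The median log2 fold change of the list was 0.44 with ATRA and 0.71 with ATO. Ddit3, which encodes the C/EBP-related stress protein CHOP, rose to 578 ± 119 with ATO, against 214 ± 20.0 in controls (log2 1.41, SE 0.23, adjusted p = 0.00254). Trib3, a pseudokinase gene, rose by 1.00 (SE 0.26, adjusted p = 0.0267). Atf4, the gene of a stress factor that dimerizes with C/EBPγ, rose to 10091 ± 505 with ATO, against 5388 ± 755 in controls (log2 0.91, SE 0.16, adjusted p = 0.00403). Without control 2 and ATRA 3, 1 gene of this list was called with ATRA and 5 with ATO, all higher. For each gene gained, control 2 was the highest control, so leaving it out could only raise the difference. For the gene called with ATRA, ATRA 3 was also the lowest ATRA library. These counts are descriptions and no test.

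Of 7 tested GFI1 corepressors, 1 was called with ATRA and 0 with ATO, with list medians of 0.17 and 0.30. The one was Ajuba, an adaptor gene, at 42.8 ± 2.00 with ATRA, against 15.9 ± 5.24 in controls (log2 1.46, SE 0.34, adjusted p = 0.025). Kdm1a, the histone demethylase gene of that complex, had log2 fold changes of 0.17 with ATRA (adjusted p = 0.567) and 0.30 with ATO (adjusted p = 0.171). Of 12 ETS and core-binding partners of PU.1, 0 were called with ATRA and 1 with ATO, Elf1, which fell to 555 ± 195, against 1030 ± 171 in controls (log2 -0.94, SE 0.24, adjusted p = 0.0252), with list medians of -0.13 and -0.11. Without control 2 and ATRA 3, Elf1 was not called and Runx1 was higher with both drugs. For Runx1, control 2 was the highest control and ATRA 3 the lowest ATRA library. Leaving them out could only raise its differences from control, so those calls are descriptions. Of 11 tested genes listed as repressed by GFI1, 1 was higher and 1 lower with ATRA, and 2 were higher and 3 lower with ATO, with medians of -0.0028 and 0.43. Cdkn1a, which encodes the cyclin-dependent kinase inhibitor p21, rose with ATRA to 3617 ± 509 and with ATO to 4449 ± 233, against 1365 ± 166 in controls (log2 1.40 and 1.71, adjusted p = 0.000348 and 0.000152). Id2, an inhibitor of helix-loop-helix factors, fell with both drugs (log2 -2.10 with ATRA and -1.64 with ATO). That list holds 2 of the members: Gfi1 itself, as the other gene higher with ATO, and Spi1, which was not called. It also holds Irf8, among those lower with ATO.

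Of 17 other factors of granulocyte development, 0 were higher and 1 lower with ATRA, and 2 were higher and 1 lower with ATO, with medians of -0.01 and 0.06. Zfp36l1, an RNA-binding protein gene, was the lower one with both (log2 -2.40 and -2.32). Junb, an AP-1 subunit gene, rose by 0.92 with ATO (SE 0.19, adjusted p = 0.0106) and Rarg, the retinoic acid receptor γ gene, by 0.84 (SE 0.21, adjusted p = 0.0255). Of 15 factors of monocyte fate, 1 was higher and 5 lower with ATRA, and 3 were higher and 5 lower with ATO, with medians of -0.55 and -0.69. Maf, a leucine zipper factor gene, fell to 42.0 ± 25.7 with ATRA and 48.2 ± 15.3 with ATO, against 207 ± 64.3 in controls (log2 -2.43 and -2.09). Also lower were Id2 and Irf5 with both drugs, Klf4 with ATRA and Irf8 with ATO. The AP-1 genes of this list went the other way: Fos rose by 2.43 with ATRA and 2.61 with ATO, and Jun by 1.88 with ATO, where Klf2 was also higher (log2 1.16).

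Granule genes are known targets of several of these factors. Of 11 primary granule genes, 2 were higher with ATRA and 3 with ATO and none was lower, with medians of 0.55 and 0.65. Hdc, the histidine decarboxylase gene, rose to 662 ± 206 with ATRA and 1061 ± 130 with ATO, against 281 ± 29.4 in controls (log2 1.20 and 1.91, adjusted p = 0.00605 and 0.00049). Nkg7, a granule membrane protein gene, rose with both drugs (log2 1.03 and 0.87), and Elane rose with ATO (log2 1.05, adjusted p = 0.0371). Of 19 secondary granule and maturation genes, 0 were higher with either drug, and 4 were lower with ATRA and 2 with ATO, with medians of -0.35 and 0.15. Those lower with ATRA were Mmp8, a collagenase gene (log2 -3.05), Fpr1, a formyl peptide receptor gene (-1.67), Anxa1 (-1.34) and Orm1 (-1.19), and Mmp8 and Fpr1 were lower with ATO (-1.69 and -1.26). With control 2 and ATRA 3 both left out, these counts changed: 5 secondary granule genes were higher and 4 lower with ATRA, and 8 were higher and 0 lower with ATO, with medians of 0.28 and 0.66. Camp, Ltf, Ngp, Olfm4 and Pglyrp1 were higher with both drugs in that fit, and Elane was not called with ATO. The libraries left out had been singled out on secondary granule genes. For each of these 5 genes, control 2 was the highest control and ATRA 3 the lowest ATRA library. Leaving them out could only raise the differences of these genes, so those counts are descriptions and no test. Of 8 receptor genes known as targets of PU.1 or C/EBP factors, 0 were called with ATRA. With ATO, Cd14 was higher (log2 0.72, adjusted p = 0.0426) and Csf1r, the macrophage colony-stimulating factor receptor gene (-1.37, adjusted p = 0.00534), and Il6ra (-1.21, adjusted p = 0.0223) were lower, with list medians of -0.09 with ATRA and -0.04 with ATO. Without control 2 and ATRA 3, 2 receptor genes were higher and 1 lower with ATRA, and 2 were higher and 2 lower with ATO. Among the controls, control 2 was highest for the receptor genes gained as higher and lowest for the one gained as lower. Leaving control 2 out could only widen those differences, so these counts are also descriptions.

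Several lists of markers of other cell types were lower in the treated libraries: those of macrophages, of T and NK cells, of eosinophils, basophils and mast cells, of stromal cells and of megakaryocytes. Of 14 tested macrophage markers, 10 were lower with ATRA and 11 with ATO, where Adgre1 was higher, and the summed level of the list was 5500 to 7440 scaled reads with ATRA and 7337 to 11400 with ATO, against 14231 to 34725 in controls. The largest fall with ATRA was that of Mertk (5.37 ± 3.84, against 256 ± 159 in controls) and with ATO that of Siglec1 (20.0 ± 7.87, against 280 ± 146). Of 12 T and NK cell markers, 9 were lower with either drug. The list summed to 174 to 296 with ATRA and 213 to 257 with ATO, against 554 to 1050 in controls. Cd8a and Ncr1 had no read with ATO, against 2.9 to 9.0 and 13.7 to 25.2 scaled reads in controls. For 8 eosinophil, basophil and mast cell markers, 6 were lower with either drug, at 773 to 842 with ATRA and 820 to 917 with ATO, against 2591 to 5446. For 7 stromal markers, 6 were lower with either drug, at 342 to 453 with ATRA and 365 to 395 with ATO, against 1078 to 1286. Pecam1, which was not called, made up 302.9, 301.9 and 365.6 of the ATRA sums. Dcn and Lum had no read in either drug group, but also at most 6.3 scaled reads in a control, and did not pass the filter. Cxcl12, Col1a2, Col3a1, Sparc and Cdh5 were below 10 in all treated libraries. They passed the filter through the controls alone, so only a lower call was open to them. Of 5 megakaryocyte markers, 2 were lower with ATRA and 4 with ATO, at 314 to 472 with ATRA and 382 to 525 with ATO, against 883 to 1098. The limit given for the stromal genes also held for Cd3e, Cd3g, Cd2, Cd4, Klrd1, Ncr1, Cpa3, Fcer1a and Pf4. Without control 2 and ATRA 3, 3 of 6 tested T and NK markers and 1 of 2 stromal markers were lower with either drug. Of eosinophil, basophil and mast cell markers, 4 of 6 were lower. Of 4 megakaryocyte markers, 1 was lower with ATRA and 2 with ATO. Macrophage counts stayed at 10 and 11 of 14. Genes that had passed the filter through the controls alone could not pass it without control 2. The other lists therefore held fewer tested genes, and their counts cannot be compared with those over all libraries.

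Sums of the B lineage list overlapped with controls under ATRA. They were 1276 to 1827 with ATRA and 850 to 1080 with ATO, against 1137 to 2093 in controls. Blnk was the only one of 6 called lower. Ms4a1, Pax5 and Ebf1 had no read in either drug group, but also at most 6.1 scaled reads in a control, and did not pass the filter. Of 4 tested erythroid markers, 1 was lower with ATRA (Slc4a1) and 0 with ATO, at sums of 20.8 to 34.5 with ATRA and 26.3 to 53.1 with ATO, against 69.2 to 119. The 4 globin genes listed had no read in any group. Only uniquely placed reads had been kept, and whether this removed globin reads was not tested. Of 9 progenitor and leukemia cell markers, 5 were lower with ATRA. With ATO 4 were lower and 1, Cd93, was higher. List medians were -2.26 with ATRA and -1.89 with ATO, and Kit was not called (log2 -0.17 and -0.38). Cd34, Cd48, Cd244 and Sox4 passed the filter through the controls alone, so only a lower call was open to them. Without control 2 and ATRA 3, 5 progenitor and leukemia cell markers were tested and 2 were lower with either drug. The list medians were then -0.02 with ATRA and -0.33 with ATO. Cd34, Cd48, Cd244 and Sox4 could not pass the filter without control 2, so these medians cover fewer genes. They cannot be compared with the medians over 9 markers. The summed level of the 7 transcription factors was 45136 to 49067 scaled reads with ATRA and 37829 to 63930 with ATO, against 30041 to 41193 in controls. In sorted bulk samples, fewer cells of a type and less RNA per cell cannot be told apart, and the part of these markers in the members' differences was not tested.

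**Figure D5:**
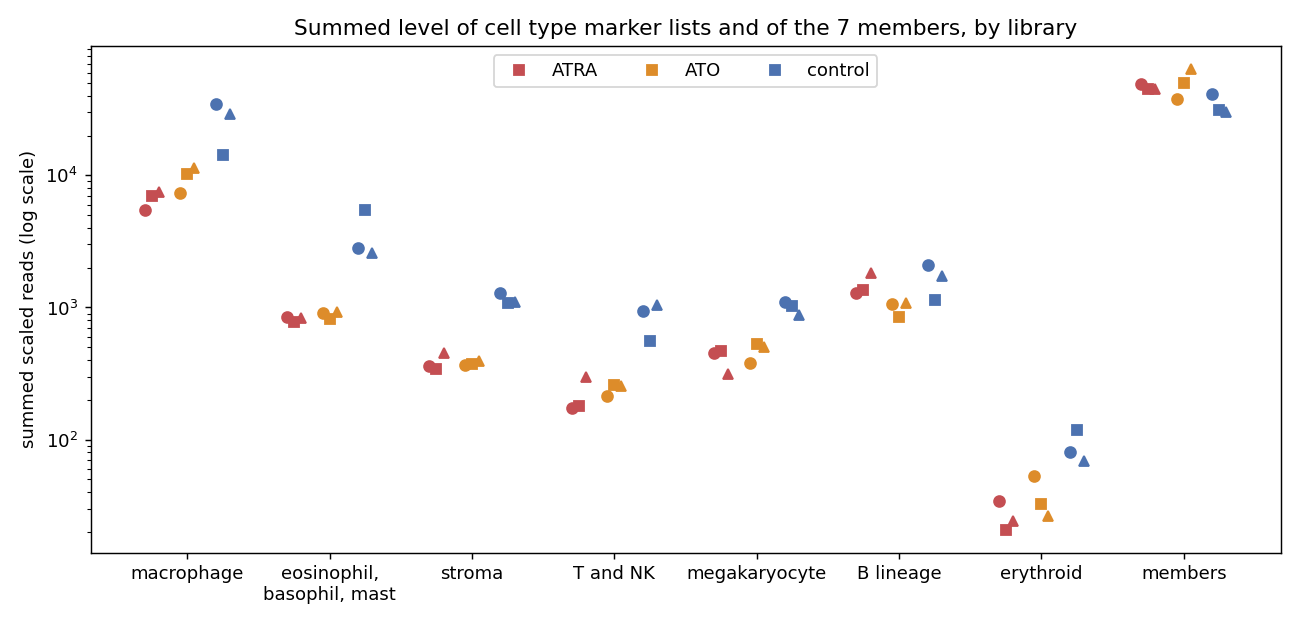
Summed scaled reads (log axis) of 7 cell type marker lists and of the 7 transcription factors in each library. The macrophage list is at 5500 to 11400 in treated libraries and at 14231 to 34725 in controls, whereas the transcription factors are at 45136 to 49067 with ATRA and 37829 to 63930 with ATO, against 30041 to 41193 in controls.

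Over the 9 libraries, Cebpb and Spi1 were the closest pair of members (Pearson r of log2 levels 0.964). Among Cebpe, Gfi1 and Cebpd the r ran from 0.86 to 0.888, and Cebpd had an r of 0.855 with Spi1. Cebpa and Cebpg, neighbors on the chromosome, had an r of -0.334. Of all tested genes, those most like Spi1 were Tspo, Mlf2 and Snrpb (0.995, 0.993 and 0.988) and those most like Cebpb were Crlf2, Snrpb and Pmf1 (0.992, 0.985 and 0.983). Gfi1 was closest to Pcyox1l, Blcap and Rtn4ip1 (0.982, 0.981 and 0.978) and Cebpd to Lsm10, Rnf5 and Batf (0.983, 0.983 and 0.979). The genes nearest Cebpe were Vill, Fam110a and Adipor1 (0.987, 0.973 and 0.972). Cebpa was nearest to Pard6a, Eefsec and Fam195b (0.984, 0.98 and 0.974) and Cebpg to Tra2a, Skp2 and Gatm (0.97, 0.956 and 0.953). The 9 points share groups, depth and base composition.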

How the data were processed

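PolyA RNA sequencing of sorted APL cells was deposited as 2 tables, ATRA with controls and ATO with the same controls. By their methods, the authors used FastQC and cutadapt, kept reads that STAR placed once in mm9, counted them per gene in HTSeq-count and tested groups in DESeq2. For the versions, annotation and strand setting the entry is not given in the sources used here. Beside mm9 the submitters' processing notes name hg19. The deposited signal values were normalized counts made by the authors per table; 6 columns of their own fold changes and p-values were not used. Dividing each column by its step returned whole reads for 100% of values within 0.01 read, and 9 libraries were rescaled together by median-of-ratios. Entries with date-like symbols (27, at most 0.173% of reads) were left out. The filter kept values of at least 10 in at least 3 libraries. The unit called for limma 3.58.1 (R 4.3.3) on log2(value + 0.5), 3 groups in 1 fit, so fold changes of low genes are understated; the median SE was 0.232. edgeR 4.0.16 and DESeq2 1.42.0 ran on the recovered reads as alternatives, beside other filters, scalings, pseudocounts, fold limits, a replicate block, length and GC trends removed, and libraries left out. Deviations of same-numbered ATO and ATRA libraries had correlations of 0.119, 0.162 and 0.331. Those of differently numbered ATO and ATRA libraries ran from -0.288 to 0.25. These ranges overlap and the labels name no shared animal or batch, so pairs by number are not established. Same-numbered ATRA and control libraries had -0.054 to 0.267, and ATO and control libraries -0.381 to 0.078. The fits of ATO and ATRA alone, with and without the block, were added after these correlations had been seen. The code was tested on simulated data. Exon positions, lengths and GC are from GENCODE vM1 on mm9, and promoters from RefSeq.

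Members and gene lists were chosen with earlier results of these data known. Besides the members and Irf8, the text names up to 4 called genes per list and comparison with the largest absolute log2 fold change, and the 3 genes most like each member by Pearson r over 9 libraries; Ngp, Camp, Ltf, Lcn2, Mpo, Olfm4, Pglyrp1, Runx1, Kdm1a and Kit were chosen after their values were seen, as were Adgre1, Cd93, Irf5, Klf2 and Klf4. Some genes that this rule takes are not reported here. The lists were C/EBP partners, GFI1 corepressors, PU.1 partners, other granulocyte factors, monocyte factors, receptors, primary and secondary granule genes, GFI1-repressed genes, and markers of progenitors, macrophages, T and NK, B lineage, erythroid, megakaryocyte, eosinophil, basophil and mast, and stromal cells.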

Additional observations from a re-analysis of the deposited data

How the results depend on the processing

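With ATRA, the count of members called was 1 (Cebpd). It was 0 with a mean of at least 50 required, at a fold over 2 or with the trends removed by the robust fit, 2 with TMM scaling, 3 without control 2 and ATRA 3 together, and 0 to 1 with single libraries left out. With ATO it was 2. It was 1 at a fold over 2, 1 with length and GC trends removed by least squares (with or without the replicate block), 0 by the robust fit, and 0 to 4 with single libraries left out, the 4 without ATO 1. The count of 1 under least squares was Cebpg in both comparisons, so the genes differed from those called without correction. Over all genes, 678 calls with ATRA became 1087 with no filter, 264 with a mean of at least 50, 1066 in DESeq2, 1017 and 1019 with trends removed by least squares without and with the block, and 163 (without control 3) to 743 with a library left out. With ATO, 1777 calls became 1151 with a mean of at least 50, 1133 with only the groups compared, 979 at a fold over 2, and 245 (without control 3) to 3039 (without control 1) with a library left out. Between ATO and ATRA, 0 calls became 334 with the replicate block in a fit of those libraries alone, 70 in DESeq2, 63 without control 2 and ATRA 3 together, and 0 to 29 with a library left out. The cause of these shifts was not tested.

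Signs turned only for differences that were not called. Cebpa with ATRA was -0.11 by the robust fit and -0.0041 without control 2 and ATRA 3 together, and Cebpb with ATRA was -0.062 by the robust fit. Cebpa with ATO was -0.14 by least squares with or without the block, -0.25 by the robust fit, -0.045 without control 2 and ATRA 3 together, and -0.045 to 0.42 with a library left out. In ATO against ATRA, Cebpd was -0.085 by least squares with or without the block, -0.070 by the robust fit and -0.17 to 0.29 with a library left out, while Cebpa ran from -0.18 to 0.12, Cebpe from -0.32 to 0.15 and Spi1 from -0.051 to 0.36 with a library left out.

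Libraries of different groups share only a number. The replicate block over the 3 groups left the members called at 1 with ATRA and 2 with ATO, and gave 720 and 1981 calls over all genes. It changed no call of a member, nor did the block on ATO and ATRA alone. Other scaling moved the median gene by at most 0.035. Member reads ran from 409 to 22872 per library, so depth limits Cebpg most.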
